A study of Mus musculus with 8 samples.

Results

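The 32 genes described here are known for their expression in oocytes, though a few such as Kit and Uchl1 are also expressed by other cells, and each was read in RNA prepared from mouse granulosa cells. They were taken by name from a table of 51886 gene symbols. Of these, 31 were found by symbol and H1foo was found under its newer symbol H1f8 through RefSeq. Granulosa cells are the somatic cells that surround the oocyte in the ovarian follicle, and the oocyte itself is a different cell. The 2 groups were 4 libraries from knockout mice of the PGR-A KO strain, which lack the A isoform of the progesterone receptor, and 4 libraries from wild-type (WT) mice. All mice were 21 to 27 days old, received 5 IU eCG to grow follicles and, after 46 h, 5 IU hCG to trigger ovulation, and were killed 8 h after hCG. Each library pooled cells of 2 to 3 mice. The labels used here do not say how the isoform was deleted, nor how cumulus cells and oocytes were separated from the granulosa cells. Values are TPM, in which each gene's estimated reads are divided by transcript length and scaled to the same total in every library, so levels can be compared between genes. The sequencing depth of each library is unknown, since TPM does not keep it. Each p-value refers to the variation among the pools.

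The oocyte and its granulosa cells depend on each other until ovulation. The oocyte secretes growth factors that act on the nearest granulosa cells, the cumulus cells, and it builds a glycoprotein coat, the zona pellucida, through which cumulus cell processes reach its surface. During its growth it also stores messenger RNAs and proteins for the early embryo, among them the subcortical maternal complex, a protein assembly under the oocyte membrane. Transcription ceases in the fully grown oocyte, and after the ovulatory signal stored messages are translated or degraded while their poly(A) tails change. The libraries were made from polyadenylated RNA.

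Factors of the basic helix-loop-helix class bind E-boxes, the 6 bases CANNTG, and one of them, FIGLA, is known to activate the zona genes in mouse oocytes through E-boxes near their start sites. The 250 bases before the start site were available for 24 of the 32 genes from RefSeq (GRCm38.p6). There was no entry for Gdf9, Zp1, Zp2, Nlrp14, Dppa3, Mos, Npm2 and Bcl2l10. Each window rests on 1 RefSeq start site per gene. By the gene positions of GENCODE M21 some windows lie within the gene, as for Figla and Khdc3, or partly so, as for Kit and Lhx8. The counts below depend on that choice of start. A CANNTG, which reads the same way on both strands, was present in 21 of the 24 windows (87.5%) and in 66.0% of the 27025 windows of all genes. The windows below are shown because the first 3 genes followed the common pattern of the oocyte genes across libraries, while the fourth, Uchl1, departed from it most among the genes above 1 TPM. Capitals mark each CANNTG.
Zp3, chr5:135979855-135980104, plus strand: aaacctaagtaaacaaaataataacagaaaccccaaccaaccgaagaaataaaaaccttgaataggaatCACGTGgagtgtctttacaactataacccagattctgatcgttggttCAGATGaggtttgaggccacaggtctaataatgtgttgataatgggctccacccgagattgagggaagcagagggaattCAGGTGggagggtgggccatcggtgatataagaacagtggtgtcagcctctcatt
Bmp15, chrX:6320725-6320974, minus strand: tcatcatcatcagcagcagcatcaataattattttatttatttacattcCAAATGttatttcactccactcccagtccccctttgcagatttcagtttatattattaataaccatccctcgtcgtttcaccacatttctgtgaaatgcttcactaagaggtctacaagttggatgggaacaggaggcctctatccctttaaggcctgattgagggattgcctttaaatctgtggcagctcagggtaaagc
Padi6, chr4:140742644-140742893, minus strand: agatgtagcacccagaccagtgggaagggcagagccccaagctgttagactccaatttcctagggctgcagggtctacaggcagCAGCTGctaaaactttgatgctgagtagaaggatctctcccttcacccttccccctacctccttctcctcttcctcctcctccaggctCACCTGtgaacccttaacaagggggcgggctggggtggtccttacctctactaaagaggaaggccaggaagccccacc
Uchl1, chr5:66675871-66676120, plus strand: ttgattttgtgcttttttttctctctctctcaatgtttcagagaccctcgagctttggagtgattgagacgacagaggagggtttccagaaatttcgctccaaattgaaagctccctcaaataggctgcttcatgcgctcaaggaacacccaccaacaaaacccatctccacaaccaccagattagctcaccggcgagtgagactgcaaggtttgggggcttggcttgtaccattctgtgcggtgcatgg
The Zp3 window held 3 such hexamers, which began 181, 134 and 55 bases before the start site, the Bmp15 window 1 and the Padi6 window 2. None was found in the windows of Uchl1, Kit and Lhx8, although Kit and Lhx8 followed the common pattern. The window of Sohlh1, a gene under 1 TPM that departed from the pattern, held 5. The presence of a CANNTG thus did not separate the genes by their pattern across libraries. TATAAA on either strand was in 4 of 24 windows, against 13.0% of all windows, and TAATTG on either strand, a sequence that the homeobox factor NOBOX can bind, was in 2 of 24, against 7.34%. The median window held 3 CpG dinucleotides in the oocyte genes and 6 in all genes. A match is a description of these letters and no evidence of binding.

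All 32 genes had a value above 0 in every library, and their levels differed widely. The mean over the 8 libraries was at least 100 TPM for 10 genes, 20 to 100 TPM for 17, 1 to 20 TPM for 4 and under 1 TPM for Sohlh1. Together they made up 0.243%, 0.310%, 0.380% and 0.224% of all TPM in PGR-A KO replicates 1 to 4, against 0.239%, 0.171%, 0.3001% and 0.295% in WT replicates 1 to 4. Granulosa markers were abundant in every library. The 15 granulosa markers summed to between 6874 and 9047 TPM in PGR-A KO and between 7885 and 11736 TPM in WT, and Inha, the inhibin alpha subunit gene, alone stood at 2994 to 4143 TPM in PGR-A KO and 3435 to 4645 TPM in WT. No 2 libraries held identical values.

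**Figure D1:**
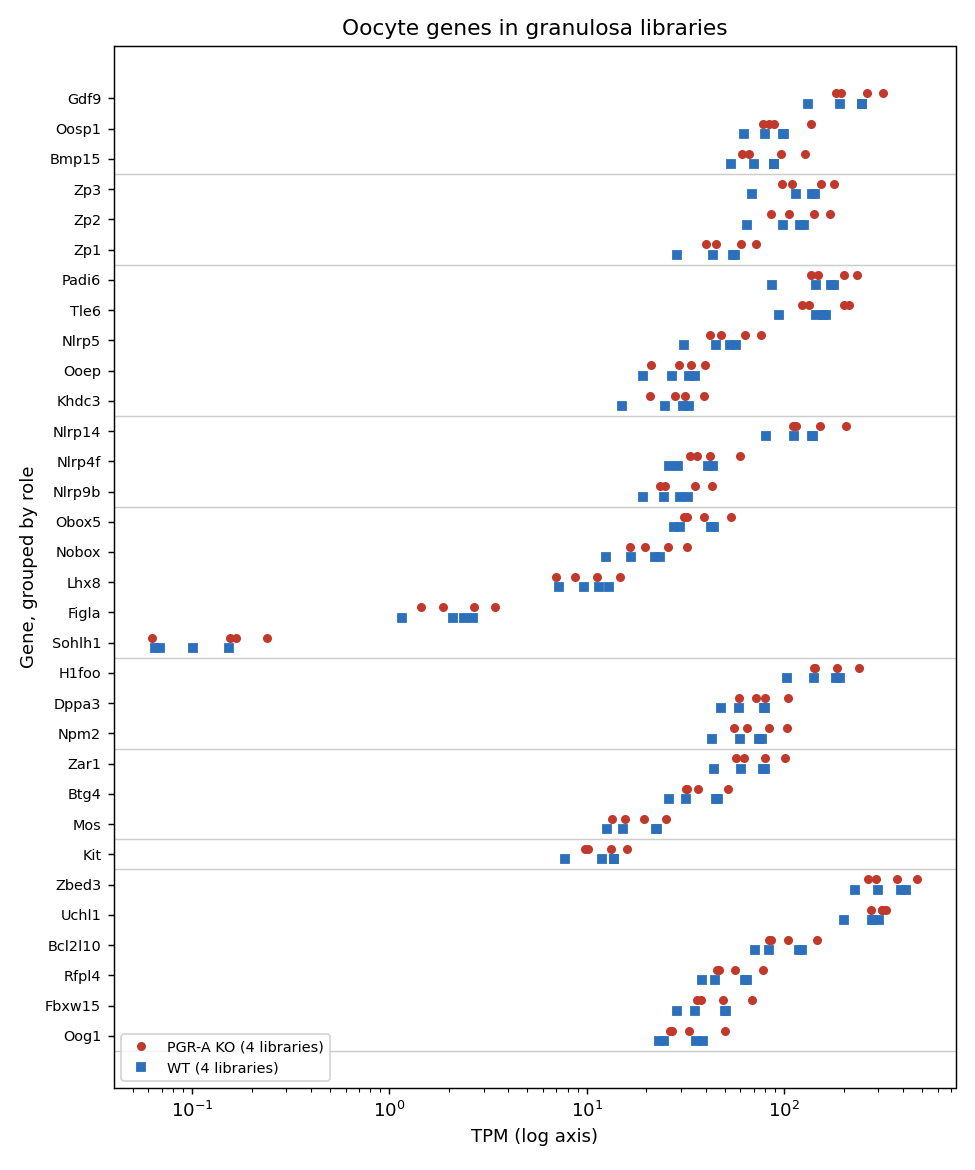
TPM (log axis) of each of the 32 oocyte genes in the 4 PGR-A KO libraries (circles, upper row of each gene) and the 4 WT libraries (squares, lower row), grouped by role. The groups overlap in every gene, and the early oocyte factors Figla and Sohlh1 lie lowest.

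Among the secreted factors, Gdf9, a growth factor of the TGF-beta family that drives cumulus expansion, was the most abundant. Gdf9 (chr11:53431023-53437904, plus strand, mm10) had 195, 264, 316 and 184 TPM in PGR-A KO replicates 1 to 4, against 191, 132, 249 and 246 TPM in WT replicates 1 to 4. Its partner Bmp15 (chrX:6314107-6320721, minus strand) had 60.8, 96.4, 127 and 66.5 TPM in PGR-A KO and 69.9, 53.8, 89.2 and 88.3 TPM in WT. For both genes the highest library was PGR-A KO replicate 3 and the lowest WT replicate 2, and the other 6 libraries of the 2 genotypes were intermixed. Oosp1, an oocyte-secreted protein, ranged from 78.1 to 136 TPM in PGR-A KO and from 62.8 to 100.3 TPM in WT. The Bmp15 level as a fraction of Gdf9 was 0.360 ± 0.037 in PGR-A KO and 0.372 ± 0.024 in WT (SD, n = 4 each).

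The zona genes encode the 3 main proteins of the mouse egg coat. Zp3, the gene of the zona protein long studied as a sperm ligand (chr5:135980099-135988624, plus strand), had 109, 154, 178 and 97.0 TPM in PGR-A KO replicates 1 to 4, against 114, 68.6, 143 and 138 TPM in WT replicates 1 to 4. The order of the libraries was that of Gdf9 in its extremes, again with PGR-A KO replicate 3 highest and WT replicate 2 lowest. Zp2, whose product binds sperm at the zona surface, averaged 126 ± 37.7 TPM in PGR-A KO and 103 ± 27.6 TPM in WT (SD, n = 4 each). Zp1, whose product crosslinks the filaments of the coat, was the least abundant of the 3, at 54.4 ± 14.7 TPM in PGR-A KO and 46.0 ± 12.9 TPM in WT (SD, n = 4 each). Zp3 stood at 0.559 ± 0.022 of the Gdf9 level in PGR-A KO and at 0.562 ± 0.033 in WT (SD, n = 4 each).

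The subcortical maternal complex genes are needed by the embryo after fertilization. Padi6, a member of the peptidylarginine deiminase family (chr4:140727355-140742643, minus strand), had 149, 201, 235 and 137 TPM in PGR-A KO replicates 1 to 4, against 145, 87.1, 179.5 and 172 TPM in WT replicates 1 to 4. Tle6, a core subunit, had 133, 200.1, 212 and 124 TPM in PGR-A KO and 146, 94.5, 157 and 163 TPM in WT. Both again had their lowest value in WT replicate 2. Nlrp5, Ooep and Khdc3 were lower in level, while Zbed3, which also takes part in the complex, is given further below. Nlrp5, also called MATER, ranged from 41.9 to 76.6 TPM in PGR-A KO and from 31.2 to 57.3 TPM in WT. Ooep ranged from 21.1 to 39.9 TPM in PGR-A KO and from 19.3 to 35.1 TPM in WT. Khdc3, known as FILIA, ranged from 21.0 to 39.4 TPM in PGR-A KO and from 15.1 to 32.7 TPM in WT. Of the further NLRP genes, relatives of Nlrp5 that oocytes express, Nlrp14 was highest, at 110.3 to 207 TPM in PGR-A KO and 81.2 to 139 TPM in WT. Nlrp4f averaged 42.7 ± 11.7 TPM in PGR-A KO and 34.9 ± 8.67 TPM in WT (SD, n = 4 each). Nlrp9b averaged 31.7 ± 9.22 TPM in PGR-A KO and 26.5 ± 5.83 TPM in WT (SD, n = 4 each).

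The transcription factors included the 3 genes with the lowest means of all 32, which were Lhx8, Figla and Sohlh1. Figla had 1.86, 2.68, 3.43 and 1.45 TPM in PGR-A KO replicates 1 to 4, against 2.11, 1.16, 2.38 and 2.64 TPM in WT replicates 1 to 4. Sohlh1, another basic helix-loop-helix factor of young oocytes, had 0.240, 0.155, 0.167 and 0.0628 TPM in PGR-A KO and 0.0685, 0.0651, 0.1005 and 0.153 TPM in WT. Figla kept the common order of the libraries at a level near that of the filter used for testing, while Sohlh1 lay under the filter. Lhx8, a LIM homeobox factor of early oocytes, ranged from 6.99 to 14.8 TPM in PGR-A KO and from 7.26 to 12.9 TPM in WT. Nobox, a homeobox factor that acts upstream of Gdf9, ranged from 16.5 to 32.1 TPM in PGR-A KO and from 12.5 to 23.6 TPM in WT. Obox5, of a homeobox family expressed in oocytes and early embryos, ranged from 31.2 to 54.0 TPM in PGR-A KO and from 27.6 to 44.3 TPM in WT.

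Genes for chromatin and for the stored messages ranged from H1foo, among the most abundant, to Mos, among the least. H1foo, the linker histone of the oocyte, had 142, 185, 238 and 143 TPM in PGR-A KO replicates 1 to 4, against 141, 103, 193 and 183 TPM in WT replicates 1 to 4. Dppa3, also called Stella, which protects maternal DNA methylation in the zygote, averaged 78.9 ± 19.2 TPM in PGR-A KO and 66.4 ± 15.7 TPM in WT (SD, n = 4 each). Npm2, a histone chaperone, averaged 76.8 ± 21.1 TPM in PGR-A KO and 63.7 ± 15.9 TPM in WT (SD, n = 4 each). These means lie closer together than the libraries of either genotype. Mos, the kinase that keeps eggs arrested in metaphase, was at 13.5 to 25.3 TPM in PGR-A KO and 12.6 to 22.6 TPM in WT. Btg4, an adaptor for the removal of maternal messages, was at 31.9 to 51.7 TPM in PGR-A KO and 26.1 to 46.1 TPM in WT. Zar1, an RNA-binding maternal factor, was at 56.9 to 101 TPM in PGR-A KO and 44.2 to 79.6 TPM in WT.

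Kit, the receptor through which granulosa cells signal to the oocyte, had 9.74, 13.3, 16.0 and 10.1 TPM in PGR-A KO replicates 1 to 4, against 12.0, 7.77, 13.7 and 13.7 TPM in WT replicates 1 to 4. Mast cells and theca cells can also express Kit. The 6 mast cell markers summed to 0.687 to 2.10 TPM in PGR-A KO and 0.443 to 1.64 TPM in WT, and the 8 theca and stroma markers to 113 to 154 TPM in PGR-A KO and 111 to 138 TPM in WT. The part of these cells in the Kit level was not tested.

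The last group held the 2 most abundant genes. Zbed3, which in mice takes part in the subcortical maternal complex, had 291, 374, 472 and 264 TPM in PGR-A KO replicates 1 to 4, against 299, 229, 414 and 390.1 TPM in WT replicates 1 to 4. Uchl1, a ubiquitin hydrolase abundant in oocytes and also in neurons, had 314, 328, 314 and 276 TPM in PGR-A KO and 302, 201, 278 and 281 TPM in WT. Zbed3 followed the common order of the libraries, but Uchl1 was nearly level in 7 of the 8 libraries and low in WT replicate 2. Bcl2l10, a BCL2 family member of oocytes, averaged 105 ± 28.9 TPM in PGR-A KO and 99.3 ± 25.9 TPM in WT (SD, n = 4 each). Rfpl4, a RING finger protein of the ubiquitin pathway, averaged 56.8 ± 15.1 TPM in PGR-A KO and 52.8 ± 13.3 TPM in WT (SD, n = 4 each). The F-box gene Fbxw15 and the leucine-rich repeat gene Oog1 were at 36.2 to 68.3 and 26.4 to 50.2 TPM in PGR-A KO, against 28.7 to 51.0 and 23.2 to 38.8 TPM in WT. The Oog1 level is uncertain, because its transcript matches Gm10436 with 98.8% identity over 2451 bases in GENCODE M21. The Zar1 level is also uncertain, because its transcript of 2494 bases matches Gm42668 with 96.4% identity over 2497 aligned bases. In all, 7 of the 32 transcripts matched another gene with at least 95% identity over at least 200 bases. The others were Dppa3, Khdc3, Nlrp5, Obox5 and Uchl1.

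The oocyte genes varied together from library to library, and the order did not follow genotype. Their summed level was 2417, 3084, 3787 and 2231 TPM in PGR-A KO replicates 1 to 4, against 2378, 1709, 2990 and 2937 TPM in WT replicates 1 to 4. The highest library was thus 2.22 times the lowest. PGR-A KO replicate 3 held the highest value of 30 of the 32 genes and WT replicate 2 the lowest of 30. Both held at once for 29 of 32 genes, against 6.04% of the 14472 genes tested. Between these extremes lay PGR-A KO replicate 2, close to replicates 3 and 4 of the WT mice, and then PGR-A KO replicates 1 and 4, close to replicate 1 of the WT mice. The median gene deviated from its own 8-library mean by -0.15, 0.21, 0.56 and -0.25 on the log2(TPM + 1) scale in PGR-A KO replicates 1 to 4, and by -0.17, -0.55, 0.20 and 0.19 in WT replicates 1 to 4. TPM is a share of each library. In bulk RNA, fewer oocytes, less RNA per oocyte and more RNA from other cells therefore cannot be told apart.

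**Figure D2:**
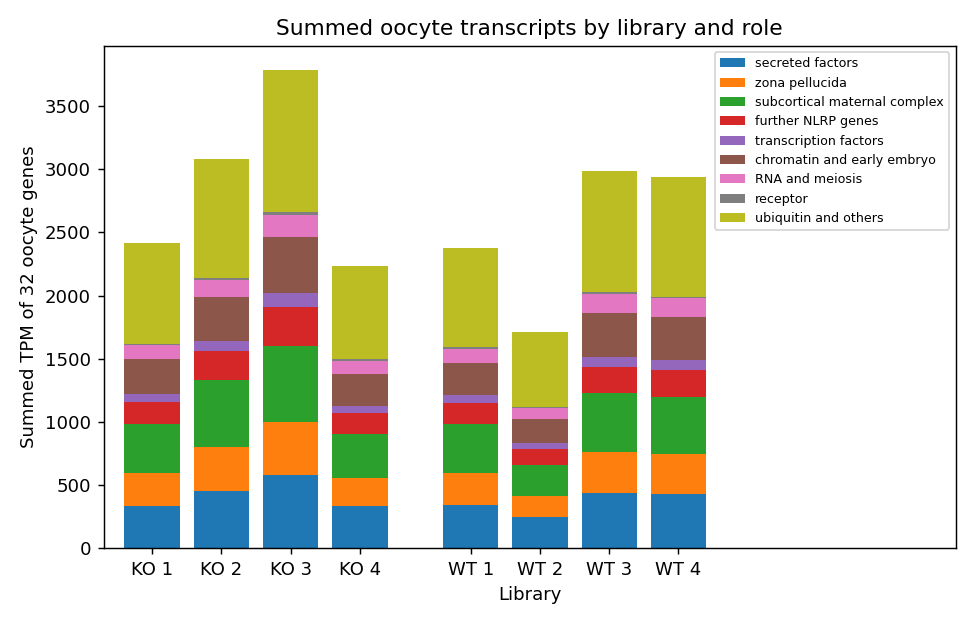
Summed TPM of the 32 oocyte genes in each library, PGR-A KO left and WT right, with the bars divided by the role of the genes. The sum runs from 1709 TPM in WT replicate 2 to 3787 TPM in PGR-A KO replicate 3, and every role scales with it.

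**Figure D3:**
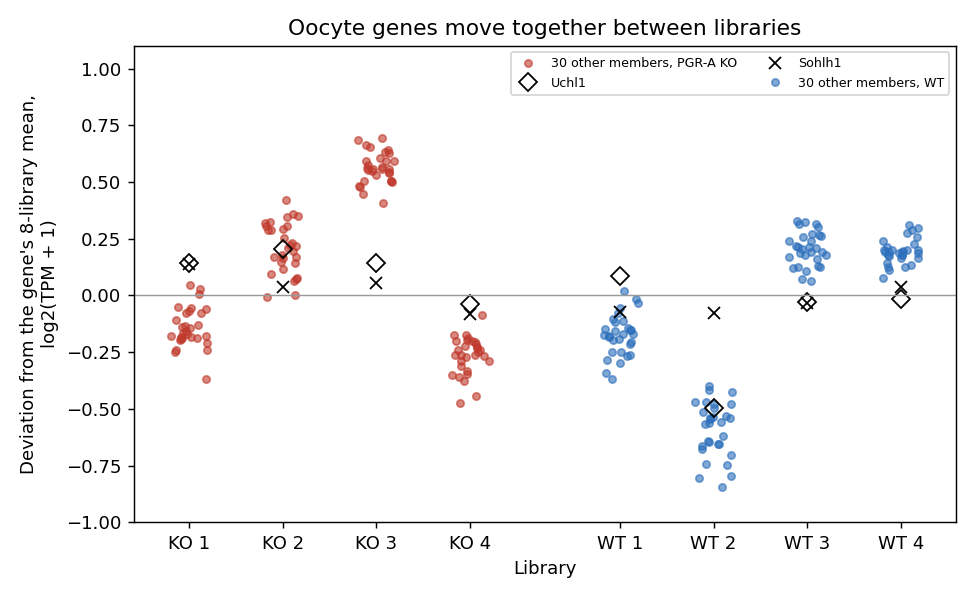
Deviation of each oocyte gene from its own mean over the 8 libraries, on the log2(TPM + 1) scale; each circle is 1 gene in 1 library, the diamond is Uchl1 and the cross Sohlh1. In PGR-A KO replicate 3 the median is 0.56 and in WT replicate 2 it is -0.55, while Uchl1 lies above the median in PGR-A KO replicate 1 and below it in PGR-A KO replicate 3.

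As a description of this shared pattern, each gene was compared with the mean of the other oocyte genes over the 8 libraries. Pearson's r was above 0.9 for 30 of the 32 genes, with Uchl1 at 0.69 and Sohlh1 at 0.50 as the exceptions. The values share libraries and their composition, so r is given without a test. Apart from Sohlh1, the ratio of the highest to the lowest library ran from 1.63 for Uchl1 to 2.96 for Figla. Once each gene was expressed as a share of the summed oocyte level of its library, most of the variation was gone. Without Uchl1 and Sohlh1, the coefficient of variation over the 8 libraries was 22.2% to 33.1% for TPM and 1.99% to 12.6% for the share. Uchl1 was the exception, since its share varied by 16.1% and its TPM by 13.8%. The zona genes made up 10.9% ± 0.648 of the oocyte sum in PGR-A KO and 10.5% ± 0.647 in WT (SD, n = 4 each). The subcortical maternal complex without Zbed3 made up 16.1% ± 0.726 in PGR-A KO and 15.4% ± 0.7497 in WT (SD, n = 4 each). Zbed3 was not counted with the complex here, and its own share, given below, was higher in WT. The secreted factors made up 14.7% ± 0.641 in PGR-A KO and 14.6% ± 0.174 in WT (SD, n = 4 each).

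The make-up of the oocyte signal, each gene as a percent of the summed oocyte TPM of its library, was looked at after the values were seen and is given without a test. The groups did not overlap in 4 of 32 genes (Zbed3, Kit, Lhx8 and Padi6), and in 3 of 67 genes of the wider list. Of all genes set in ratio to the same sum, 3.73% did not overlap. That percentage is an unlike yardstick, since the ratio takes the common variation out of an oocyte gene and brings it into an unrelated gene. Zbed3 took 12.1% ± 0.259 in PGR-A KO and 13.3% ± 0.522 in WT (SD, n = 4 each). Kit took 0.428% ± 0.021 in PGR-A KO and 0.471% ± 0.022 in WT, and Lhx8 0.357% ± 0.032 in PGR-A KO and 0.414% ± 0.018 in WT (SD, n = 4 each). Padi6 took 6.26% ± 0.171 in PGR-A KO and 5.76% ± 0.454 in WT (SD, n = 4 each). The gaps between the groups were small. The highest PGR-A KO and lowest WT values were 12.47% and 12.58% for Zbed3, 0.4535% and 0.4545% for Kit, and 0.390% and 0.392% for Lhx8. For Padi6 the lowest PGR-A KO value was 6.15% and the highest WT value 6.09%, with WT replicate 2 at 5.09%.

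The comparison of genotypes asks whether granulosa pools lacking PGR-A carried more or less oocyte RNA. No oocyte gene passed the threshold of an adjusted p under 0.05. Values were compared as log2(TPM + 1) with limma over the 14472 genes that reached 1 TPM in 4 or more libraries, of which 2 (0.0138%) were called, neither an oocyte gene. All oocyte genes but Sohlh1 were tested, and 0 of 31 had an unadjusted p under 0.05, against 6.31% of all genes. The groups overlapped in all 32 genes, and did not overlap in 3.42% of all genes. For a short list of genes that vary together, 0 is near these percentages, so nothing is read from it. The summed level was 2880 ± 707 TPM in PGR-A KO and 2503 ± 598 TPM in WT (SD, n = 4 each), a ratio of 1.15. That difference is smaller than the SD of either genotype.

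The log2 changes were nonetheless of 1 sign, with higher means in PGR-A KO for 30 of the 31 genes and Lhx8 the exception at -0.01. Over all genes tested 42.6% had a higher mean in PGR-A KO, or 54.4% with quantile normalization. The median log2 change of the 31 genes was 0.20, against -0.02 over all genes. Gdf9 changed by 0.23 (SE 0.23, limma adjusted p = 0.905), with a 95% interval from -0.29 to 0.76. Padi6 had the largest log2 change, 0.33 (SE 0.25, limma adjusted p = 0.857). Uchl1 had the smallest SE, with a log2 change of 0.23 (SE 0.13, limma adjusted p = 0.801). For Mos it was 0.02 (SE 0.23, limma adjusted p = 0.989) and for Lhx8 -0.01 (SE 0.23, limma adjusted p = 0.997). The intervals do not show that the genotypes were alike.

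The common sign did not hold once the highest PGR-A KO library and the lowest WT library were left out. This choice was made after the values were seen, and it lowers the difference by construction, so the direction of the move is no finding. With both left out, 1 of 31 genes had a higher mean in PGR-A KO, namely Uchl1 at 0.09, against 41.0% of all genes. The median log2 change of the 31 genes was then -0.14, and 0 of them passed, against 0.0414% of all genes. The summed level without these libraries averaged 2577 TPM in PGR-A KO and 2768 TPM in WT, a ratio of 0.931. Leaving out PGR-A KO replicate 3 alone gave 18 of 31 higher means, against 45.3% of all genes, and a median of 0.05. Leaving out WT replicate 2 alone gave 20 of 31, against 38.0% of all genes, and a median of 0.03. Since the 31 genes vary as a block, their count in 1 direction is not a count of 31 separate observations.

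**Figure D4:**
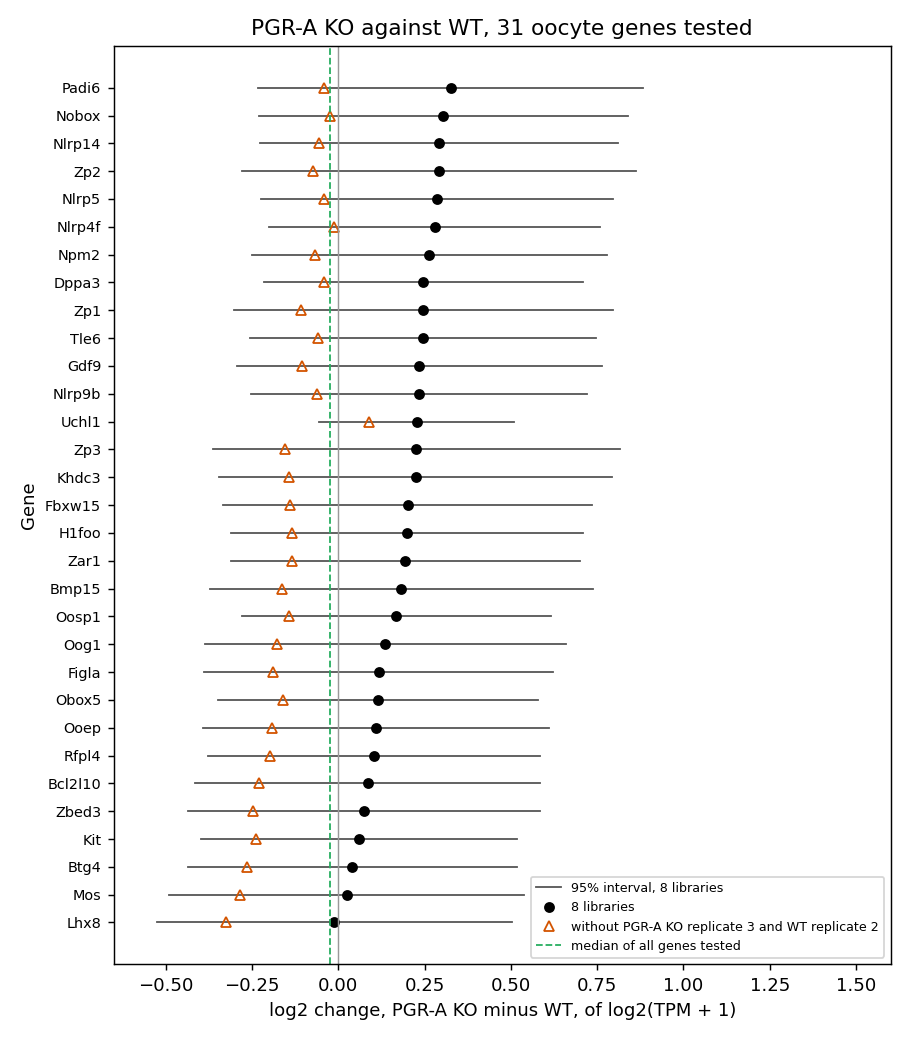
Log2 change of each tested oocyte gene, PGR-A KO minus WT, with its 95% interval from limma over 8 libraries (circles and lines), and with PGR-A KO replicate 3 left out together with WT replicate 2 (triangles). With 8 libraries 30 of 31 circles lie above 0, and with 6 libraries 1 of 31 triangles does; the dashed line is the median of all genes, -0.02.

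Further oocyte genes were read in the same way. A wider list of 69 oocyte genes had 67 in the table and 62 tested. With limma 0 passed, 1 had an unadjusted p under 0.05, and 58 of the 62 had higher means in PGR-A KO with a median log2 change of 0.19. Over all genes 6.31% had such a p and 42.6% a higher mean. With the 2 libraries left out as above, 7 of the 62 had higher means and the median was -0.12. PGR-A KO replicate 3 was the highest and WT replicate 2 the lowest library at once for 51 of the 67. The gene with the unadjusted p was Dnmt3l, the cofactor of DNA methylation in growing oocytes, named after its values were seen. Dnmt3l had 14.8, 21.4, 20.1 and 14.8 TPM in PGR-A KO replicates 1 to 4, against 13.98, 8.83, 14.5 and 14.1 TPM in WT replicates 1 to 4 (log2 change 0.44, SE 0.18, limma adjusted p = 0.783). Its groups did not overlap, but the gap between them was small. The 5 most abundant genes of that list were Ldhb, Spin1, Zfp57, Obox2 and Eif4e1b. Ldhb, a lactate dehydrogenase subunit found in many cells, averaged 466 ± 78.8 TPM in PGR-A KO and 448 ± 62.7 TPM in WT (SD, n = 4 each). Spin1, a chromatin reader that is not confined to oocytes, averaged 255 ± 16.95 TPM in PGR-A KO and 222 ± 23.8 TPM in WT (SD, n = 4 each). The imprinting factor Zfp57, the homeobox gene Obox2 and the translation factor gene Eif4e1b averaged 95.1, 88.1 and 87.1 TPM in PGR-A KO, against 85.9, 79.7 and 75.4 TPM in WT.

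Genes outside the 32 could be ranked by likeness to the mean oocyte pattern. Of 10819 genes with a mean of at least 5 TPM, 425 had a Pearson r above 0.9 over the 8 libraries. The 10 most alike, with r from 0.996 to 0.998, were Oas1e, Slc45a3, Oas1h, Cpsf4l, Esrrb, Oog4, Zfp57, Nkd1, Gtsf1 and Tdrd1. Of these, 4 were in the wider oocyte list. Oas1e, of the oligoadenylate synthetase family, was closest, at 53.7, 71.2, 91.1 and 49.5 TPM in PGR-A KO replicates 1 to 4, against 53.7, 38.7, 67.8 and 70.1 TPM in WT replicates 1 to 4. Gtsf1 and Tdrd1 are known for their part in the piRNA pathway of germ cells. Tdrd1 averaged 11.02 ± 3.28 TPM in PGR-A KO and 9.56 ± 2.75 TPM in WT (SD, n = 4 each). These ranks are a description of 8 libraries.

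No marker sum of other cells shared both extremes of the oocyte order, though single genes such as Amh did. The granulosa sum was 8462, 9047, 6874 and 7487 TPM in PGR-A KO replicates 1 to 4, against 7885, 11736, 9679 and 8303 TPM in WT replicates 1 to 4. It was thus lowest where the oocyte genes were highest, in PGR-A KO replicate 3, and highest where they were lowest, in WT replicate 2. Per 1000 TPM of granulosa markers the oocyte sum was 286, 341, 551 and 298 TPM in PGR-A KO, against 302, 146, 309 and 354 TPM in WT, so the extremes lay 3.78-fold apart on that scale. The 14 cumulus-enriched genes summed to 2974, 2726, 1576 and 2566 TPM in PGR-A KO, against 3108, 2022, 1865 and 1649 TPM in WT. That list was lowest in PGR-A KO replicate 3, the library with the most oocyte RNA. Vcan, itself a large part of that list, and the sum of the 5 mural-enriched genes were also lowest there, and both are given below. Whether the cumulus-enriched sum measures cumulus cells alone was not tested. Of the 14 cumulus-enriched genes 1, Amh, was highest in PGR-A KO replicate 3, and the same 1 was lowest in WT replicate 2. Vcan, the versican gene of the expanding matrix and the most abundant of the list, had 1604, 1437, 643 and 1448 TPM in PGR-A KO, against 1845, 1118, 803 and 783 TPM in WT. Amh, the anti-Müllerian hormone gene, known to be higher in cumulus than in mural cells and picked after its values were seen, had 193, 258, 362 and 169.6 TPM in PGR-A KO, against 194, 147, 361 and 266 TPM in WT. Slc38a3, an amino acid transporter gene known from cumulus cells and also picked after its values were seen, had 35.4, 68.5, 77.8 and 36.8 TPM in PGR-A KO, against 47.6, 55.8, 132 and 94.4 TPM in WT, and so was highest in WT replicate 3. Their part in the oocyte order was not tested.

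**Figure D5:**
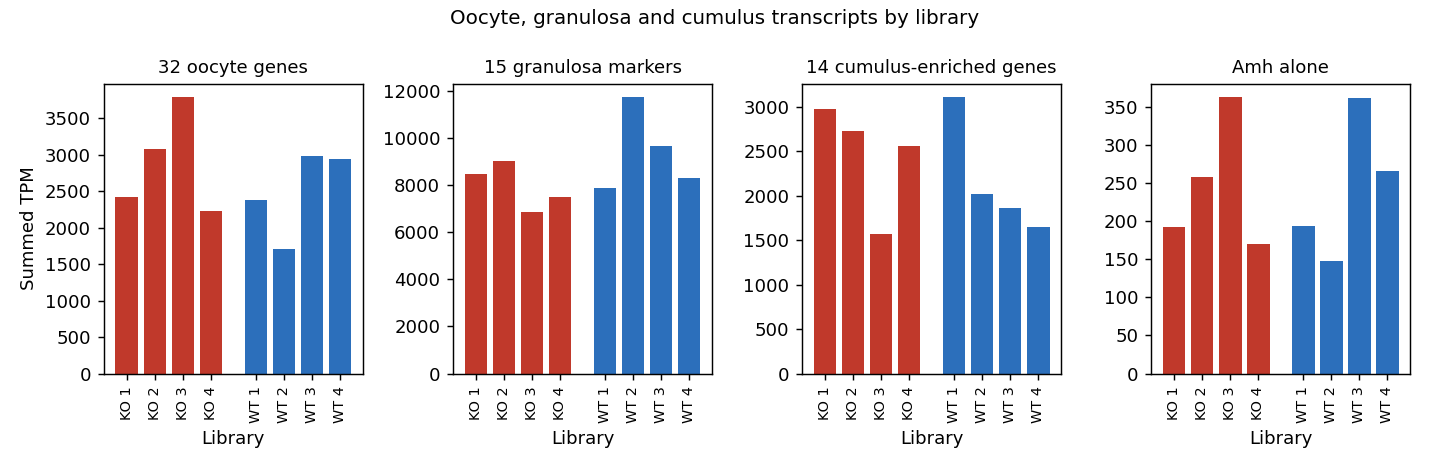
Summed TPM by library, PGR-A KO left and WT right, of the 32 oocyte genes, 15 granulosa markers, 14 cumulus-enriched genes and Amh alone. Amh was picked after its values were seen, as the only 1 of the 14 that shares both extremes of the oocyte sum. PGR-A KO replicate 3 has the highest oocyte sum (3787 TPM) and the lowest granulosa and cumulus-enriched sums (6874 and 1576 TPM).

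Markers of mural granulosa cells and of blood, vessels, epithelium and stroma were read in the same way. The 5 mural-enriched genes summed to 685 to 1708 TPM in PGR-A KO and 821 to 1458 TPM in WT. Cyp11a1, the first enzyme of steroid synthesis, was the most abundant and lowest in PGR-A KO replicate 3 at 373 TPM. The mural-enriched list is not separate from the granulosa list, since the 2 share genes, among them Cyp11a1. The 11 macrophage markers summed to 66.5, 61.1, 120.0 and 56.0 TPM in PGR-A KO, against 88.2, 98.7, 94.0 and 121 TPM in WT, with the lysozyme gene Lyz2 the highest of them. Macrophage markers were thus also high in PGR-A KO replicate 3, but not low in WT replicate 2. The 8 endothelial markers summed to 16.3 to 29.2 TPM in PGR-A KO and 21.4 to 43.8 TPM in WT, the 7 surface epithelium markers to 83.1 to 89.7 TPM in PGR-A KO and 80.5 to 115 TPM in WT, and the 6 erythroid markers to 3662 to 6319 TPM in PGR-A KO and 1733 to 11370.2 TPM in WT. The erythroid sum was lowest in WT replicate 2, as for the oocyte genes, and highest in WT replicate 3. Within these lists Cdh5, Krt8 and Hbb-bs were the most abundant, and among theca and stroma markers Col3a1. Mitochondrially encoded genes took 21.4%, 21.0%, 26.4% and 26.5% of TPM in PGR-A KO, against 20.9%, 24.4%, 20.9% and 24.1% in WT. Their part in the oocyte levels was checked by rescaling without them, which gave an oocyte sum of 2912 TPM in PGR-A KO and 2479 TPM in WT.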

How the data were processed

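The authors deposited 1 table of TPM for 8 libraries, 4 from PGR-A KO and 4 from WT mice, whose columns sum to between 994519 and 997022 TPM. FastQC, Salmon, limma and edgeR are listed in the submitters' processing notes, as is mm10, and neither version nor role is stated. Which annotation was used, and how transcripts were summed to genes, is not given in those sources. Per the labels, libraries were paired-end and from polyadenylated RNA. Columns were tied to samples by library name. The oocyte genes and all lists were chosen with earlier results of these data known.

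TPM hold no counts, so no count test was run. Log2(TPM + 1) was fitted with limma 3.58.1 (R 4.3.3), with a trend on the mean level and no covariate, over the 14472 genes that reached 1 TPM in 4 or more libraries. The tests were 2-sided, and Benjamini-Hochberg adjustment ran over all genes. The scale understates changes of low genes. The fit was tested on simulated data. Sums, shares and likeness are descriptions without a test. Alternatives were other pseudocounts, filters, scalings and moderation, a replicate block and each library left out. All 32 genes are named, with the 5 most abundant of the wider list, the 10 genes most alike (no Gm, Rik or pseudogene names) and the most abundant of each marker list; others are said to be outside this rule. Positions are from GENCODE M21 (mm10), shared sequence from BLASTN 2.17.0, and windows from RefSeq GRCm38.p6, 1 per gene.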

Additional observations from a re-analysis of the deposited data

Results flagged for a closer look

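In PGR-A KO replicate 3, the library with the most oocyte RNA, the 11 macrophage markers summed to 120.0 TPM, against 56.0 to 66.5 TPM in the other PGR-A KO libraries. The gap to its neighbours marked it as far from the rest of its group. It was the single such value among 84 groups of 4 libraries, where chance gives about 4.2, and no oocyte gene had one.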

How the results depend on the processing

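No oocyte gene passed in any of the 19 alternatives to the fit, with adjusted p from 0.382 to 1.0 over 588 values. Uchl1 alone had an unadjusted p under 0.05, without WT replicate 1 (0.0474). The median log2 change of 0.20 kept its sign under each single alternative, at 0.03 to 0.30 with a library left out. The difference in log2 summed level, 0.20, ran from 0.03 to 0.32 with a library left out. Leaving out PGR-A KO replicate 3 together with WT replicate 2, an alternative added after the data were seen that lowers both by construction, turned these to -0.14 and -0.11. With TMM factors, quantile normalization and rescaling without mitochondrial genes 31 of 31 genes had higher means. The share of all genes with a higher mean was then 52.5%, 54.4% and 49.9%, against 42.6% in the main fit. Over all genes the 2 calls became 3 with a pseudocount of 0.1 and 1 with a pseudocount of 5. They became 0 to 6 with a library left out and 6 without both libraries. An unadjusted p under 0.05 was reached by 913 genes, and by 1706 where all genes were tested. The count was 1368 with the replicate block and 505 to 1832 with a library left out. Why these counts moved was not tested. The labels used here do not say whether the replicate numbers pair the libraries. Deviations of same-numbered libraries correlated at 0.36, -0.11, 0.39 and -0.29, against -0.55 to 0.43 for differently numbered ones. Pairing was not tested. With a replicate block 2 genes and 0 oocyte genes passed. The depth behind low values such as those of Sohlh1 and Figla is unknown.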

Other observations

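The oocyte genes had 6 of 32 on chromosome 7 (18.8%), which holds 9.22% of protein-coding genes in GENCODE M21.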
